A study of Homo sapiens with 15 samples.

Results

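The genes described here are 48 genes of mitosis and the spindle, measured on 15 arrays of HCT116 xenograft tumors. They were chosen by name and not by their values, and a probe (a short DNA strand on the array that binds the RNA of 1 gene) was assigned to one of them where its RefSeq accession maps to that gene. Probes were found for 47 of the 48, UBE2C being the one that was not matched, of 27777 genes on the array. The 47 genes were read by 59 probes, and all 59 were well above background on all 15 arrays, so no member was lost to the filter on dim probes that left 25063 genes in all. A single probe read 36 of the members, and 11 had more than 1.

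HCT116 is a human colon cancer cell line. The cells were transfected with the empty pCDNA3 vector, with Myc-tagged wild type MOAP-1 (modulator of apoptosis 1, a BH3-like partner of the tumor suppressor RASSF1A), with Myc-tagged MOAP-1 carrying a lysine to arginine change (K264R or K278R), or with HA-tagged wild type RASSF1A, and 3 tumors of each of these 5 constructs were profiled. Tumors grew under the skin of athymic nude mice, which lack a working T cell system but keep other leukocytes, vessels and stroma, and were excised at day 35. Transfection of HCT116 cells was transient according to the methods of the study, so the cells were a mixed population and not a clone, and the share of tumor cells that still carried a construct at excision was not measured here. The methods call the 3 tumors of a construct independent, but neither they nor the labels say whether these came from separate mice, and the p values therefore describe only the spread between these samples.

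Entry into mitosis is driven by CDK1 bound to cyclins A and B, and the Aurora and Polo-like kinases, motor proteins and microtubule binders then build the spindle. The kinetochore ties chromosomes to the spindle, and the checkpoint proteins hold the anaphase-promoting complex in check until all chromosomes are attached. Many of these genes are transcribed in a wave late in the cell cycle under FOXM1, B-MYB and the DREAM complex, and in bulk tumors their summed RNA is widely read as a sign of how many cells are dividing.

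Values are log2 signals from which the 75th percentile of the array was subtracted, so that 0 is the 75th percentile of that array and 1 unit is a doubling. Levels can be compared between tumors for 1 probe and not between probes. On the 15 arrays that percentile ranged from 496.3 to 1402 in signal units, and 85.1 to 93.1% of spots were well above background. A change passed the test where the adjusted p of limma (Benjamini-Hochberg, over 30585 probes) was below 0.05, and only such changes are called rises or falls. Where a gene had several probes, the brightest stood for it. The slides did not spread the constructs evenly. The K264R tumors were alone on a slide, MOAP-1 tumors 1 and 3 shared another, MOAP-1 tumor 2 lay with the 3 K278R tumors, and the 3 vector tumors lay with RASSF1A tumor 3. RASSF1A tumors 1 and 2 were on the remaining slide, scanned on a later day. K264R, K278R and MOAP-1 tumors share no slide with vector tumors, nor MOAP-1 tumors with K264R or RASSF1A tumors. Slide and construct therefore cannot be told apart in MOAP-1, K264R and K278R against vector, or in MOAP-1 against K264R and RASSF1A. No value within a slide can be had in these comparisons. With slide as a random block, 18, 27 and 12 of the 47 members were called in MOAP-1, K264R and K278R against vector. The shares of all genes called were then 34.5%, 40.3% and 27.6%. In MOAP-1 against K264R 0 members were called and against RASSF1A 24, with 0.00399% and 39.7% of all genes. Such a block does not separate slide from construct in these comparisons. Tumor numbers within a construct are those of the scanner output. Only 8 of the 15 columns of the authors' own log2 table correlate best with the scanner file of their name, and each of the other 7 does so with a different tumor of its construct.

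MOAP1 was higher than in vector in the tumors of all 3 MOAP-1 constructs, by 0.86 in MOAP-1, 0.55 in K264R and 0.74 in K278R (adjusted p = 0.000842, 0.00939 and 0.00504). RASSF1 was not higher in the tumors labelled RASSF1A (1.55 to 1.59, against 1.52 to 1.81 in vector, adjusted p = 0.671). Whether its probe reads the transfected cDNA was not tested, and these tumors are named by their label. Of 12 markers of colon epithelium, 11 were well above background in every tumor and 1, CDH17, in none. Their summed linear signal, in units of the 75th percentile, was 273 to 313 in vector and lower in all other tumors, at 224 to 257 in MOAP-1, 204 to 230 in K264R, 185 to 263 in K278R and 240 to 270 in RASSF1A. The summed linear signal of 10 fibroblast markers ran from 2.06 to 7.83 times the 75th percentile in vector, 5.76 to 44.4 in MOAP-1 and 4.71 to 19.5 in K264R tumors. It was above all vector tumors in K278R tumors, where it reached 41.8, and in RASSF1A tumors, where it started at 8.11, with COL6A3 and LUM well above background on no array. That of 7 leukocyte markers was highest in RASSF1A tumors, at 15.8 to 20.7 against 12.2 to 16.1 in vector and at most 14.3 in the tumors of the MOAP-1 constructs. That of 5 erythroid markers was 14.5 to 17.1 in vector, 12.3 to 16.5 in MOAP-1, at most 13.9 in K264R, at least 13.8 in K278R and 17.6 to 22.2 in RASSF1A tumors. The arrays carry human probes and the hosts were mice. Markers of host cells therefore read cross-hybridizing host RNA or the cell line itself, and their sums do not measure host cell content. The part of any of these cell types in the results was not tested.

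The promoters of the members share sequence that the choice of the genes did not use. In the RefSeq promoters of GRCh38.p14, 41 of the 48 members had an entry, and AURKA, BIRC5, BUB3, FOXM1, TPX2, TTK and UBE2C did not. In the 250 bases before the start, read on both strands, TTTGAA (a form of the cell cycle genes homology region) was found for 24 of 41 members, or 58.5%, against 16.1% of 27305 genes. Its other form, TTCGAA, was found for 1 member, or 2.44%, against 1.5% of genes. CCAAT, the site of NF-Y, was found for 35 members, or 85.4%, against 37.0% of genes. Both kinds of motif were found before members with and without a call. TTTGAA or TTCGAA lay before 4 of the 7 genes with a promoter entry that rose in the tumors of all 3 MOAP-1 constructs, and before 12 of the 19 with no call against vector. CCAAT lay before 7 of those 7 and 18 of those 19. Whether the shares differ was not tested. The 120 bases before the start are shown for KIF4A, CDC20 and TOP2A, which rose in those tumors, for CKS2, which fell in MOAP-1 tumors, and for CCNB2, which passed in none of the comparisons with vector. Capitals mark TTTGAA or its complement TTCAAA, and CCAAT or its complement ATTGG. A match describes the letters only.
KIF4A (chrX:70289984-70290103, plus strand): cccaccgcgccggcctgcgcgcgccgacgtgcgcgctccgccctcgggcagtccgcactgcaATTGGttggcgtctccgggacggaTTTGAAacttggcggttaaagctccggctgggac
CDC20 (chr1:43358861-43358980, plus strand): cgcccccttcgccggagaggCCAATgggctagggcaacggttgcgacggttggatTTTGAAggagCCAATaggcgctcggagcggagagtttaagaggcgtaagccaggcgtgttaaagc
TOP2A (chr17:40417897-40418016, minus strand): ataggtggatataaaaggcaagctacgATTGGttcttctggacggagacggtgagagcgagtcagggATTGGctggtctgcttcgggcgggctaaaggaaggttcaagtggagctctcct
CKS2 (chr9:89311075-89311194, plus strand): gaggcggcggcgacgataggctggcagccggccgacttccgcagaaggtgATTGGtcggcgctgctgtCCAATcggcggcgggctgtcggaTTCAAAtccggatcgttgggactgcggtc
CCNB2 (chr15:59105026-59105145, plus strand): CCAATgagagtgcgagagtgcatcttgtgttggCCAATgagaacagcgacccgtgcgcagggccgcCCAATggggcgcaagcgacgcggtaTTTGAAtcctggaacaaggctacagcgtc

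Against the vector tumors, more members rose than fell in MOAP-1 and K264R tumors, and in K278R tumors 9 rose while the members as a whole lay close to vector. In MOAP-1 tumors 16 of the 47 genes rose and 2 fell, against 14.3% and 15.3% of all genes, and the median change of the members was 0.10 against -0.01 over all genes. In K264R tumors 25 members rose and 0 fell, against 13.6% and 20.6% of all genes, with a median of 0.31 against -0.07. In K278R tumors 9 rose and 0 fell, against 11.2% and 8.56% of all genes, with a median of -0.02 against 0.05 and 23 of the 47 above 0. The 9 calls in K278R tumors came down to 2 without vector tumor 2, to 3 without K278R tumor 3 and to 5 without vector tumor 1. The share of all genes that rose came down from 11.2% to 3.92%, 6.58% and 7.88% in the same fits. Without K278R tumor 2, 6 members rose and 3 fell, against 10.4% and 9.3% of all genes. In K264R and K278R tumors 29 and 19 of the 47 members had an unadjusted p below 0.05 in either direction, against 11094 and 8830 of 25063 genes. Limma with array weights called 2 members lower in each of K264R and K278R tumors, against 30.8% and 8.33% of all genes. The methods' t-test called 0 members lower in both, and its shares of all genes are not given here. In the tumors labelled RASSF1A no member passed, nor did any gene (0.0%), while 12 members had an unadjusted p below 0.05 by limma against 11.8% of genes, and the methods' t-test called 0. Of the 47, 36 lay above 0 there, with a median of 0.18 against 0.03, and the RASSF1A tumors lay wholly above the vector tumors in 19, against 10.6% of all genes. All 4 comparisons share the 3 vector tumors. In bulk tumors a change in the number of dividing cells and a change of an RNA per cell cannot be told apart.

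**Figure D1:**
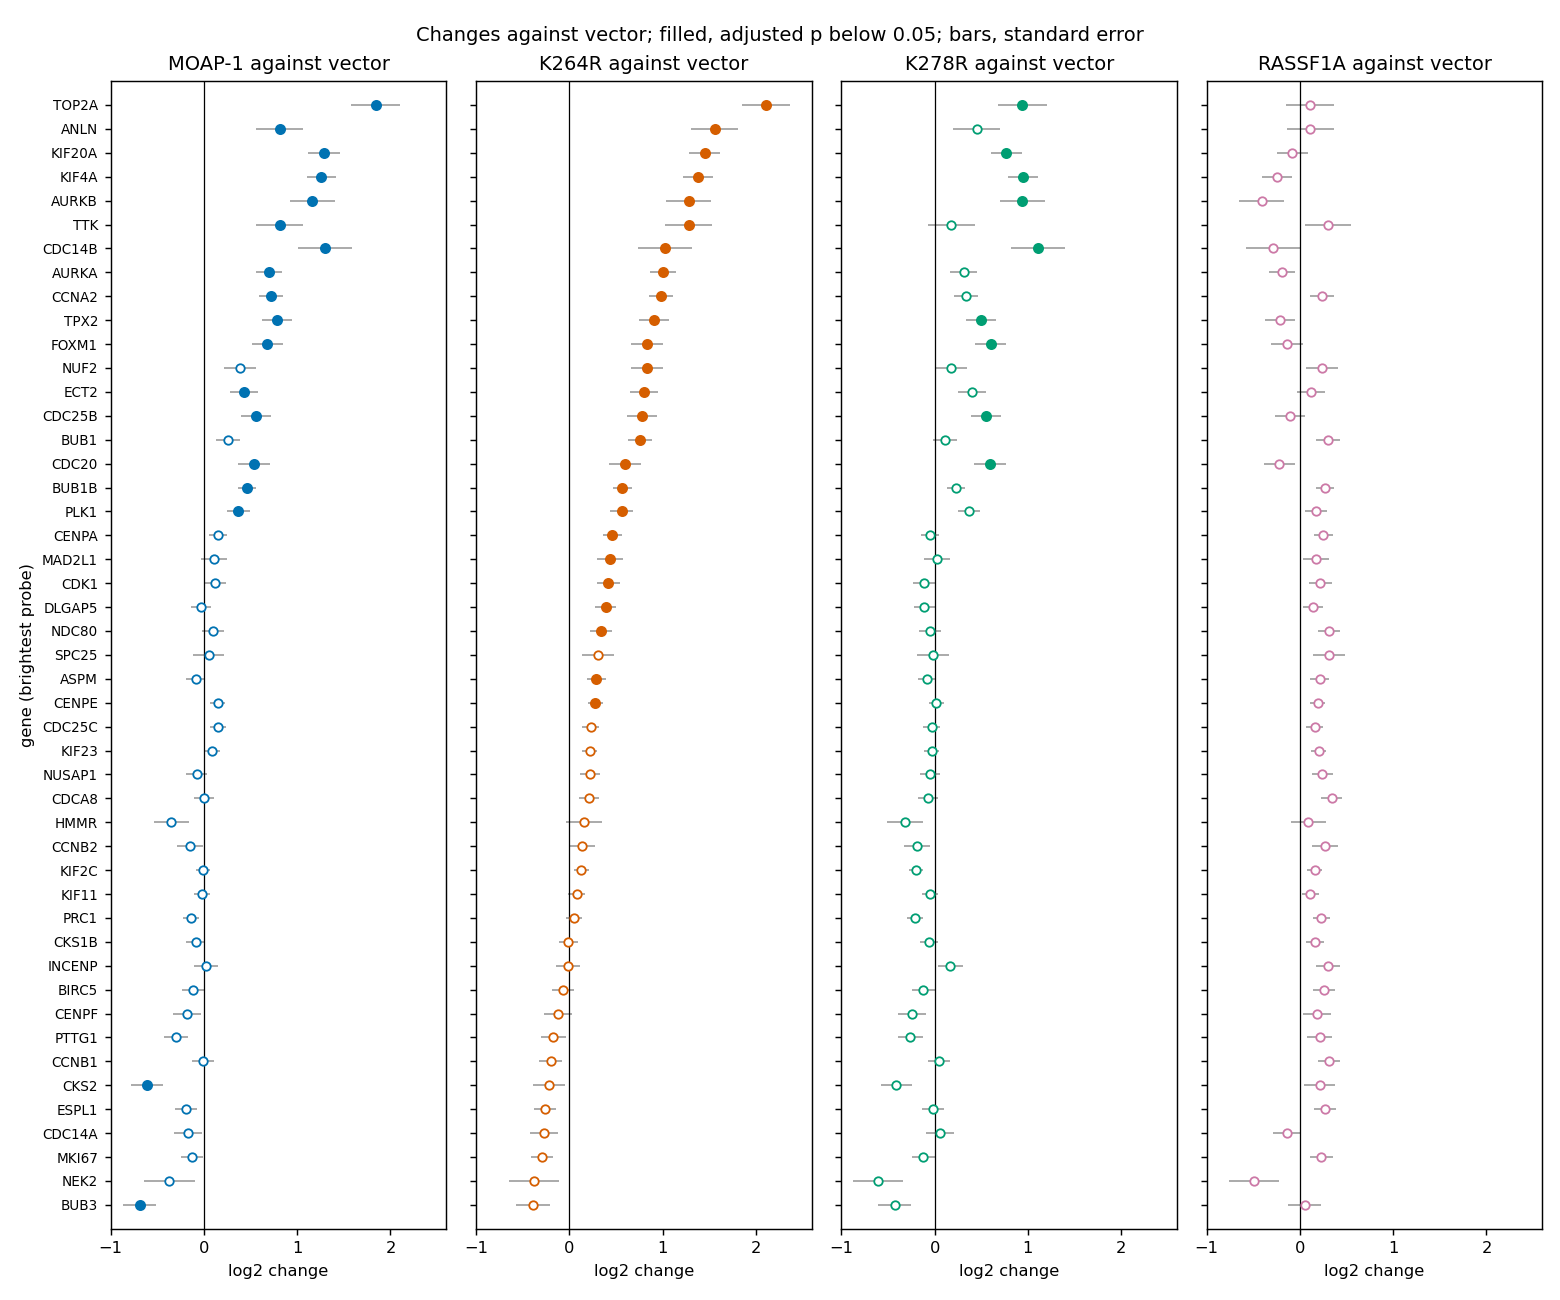
Log2 change of 47 mitosis and spindle genes against vector (x axis) at the brightest probe of each gene (y axis, ordered by the K264R change) in 4 constructs, with bars for the standard error and filled points for adjusted p below 0.05. Filled points number 18 for MOAP-1, 25 for K264R and 9 for K278R and are absent for RASSF1A.

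Since the vector tumors are shared, the values of the constructs are given side by side and are not independent of one another. The share of all genes with the same joint pattern is not given here, so the groups below only sort the members. In each of MOAP-1, K264R and K278R tumors 9 genes rose, which were AURKB, CDC14B, CDC20, CDC25B, FOXM1, KIF20A, KIF4A, TOP2A and TPX2, by 0.54 to 1.84, 0.60 to 2.11 and 0.50 to 1.11. A further 7, ANLN, AURKA, BUB1B, CCNA2, ECT2, PLK1 and TTK, rose in MOAP-1 and K264R tumors and had changes of 0.18 to 0.45 in K278R tumors (adjusted p from 0.0506). ASPM, BUB1, CDK1, CENPA, CENPE, DLGAP5, MAD2L1, NDC80 and NUF2 rose in K264R tumors, by 0.28 to 0.83, and lay between -0.09 and 0.39 in MOAP-1 and between -0.11 and 0.18 in K278R tumors. BUB3 and CKS2 fell in MOAP-1 tumors. The other 20 passed in no comparison with vector. In the tumors labelled RASSF1A the 9 genes that rose in all 3 MOAP-1 constructs had changes of -0.41 to 0.11, and the 20 without a call had changes of -0.49 to 0.34 with 18 above 0.

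**Figure D2:**
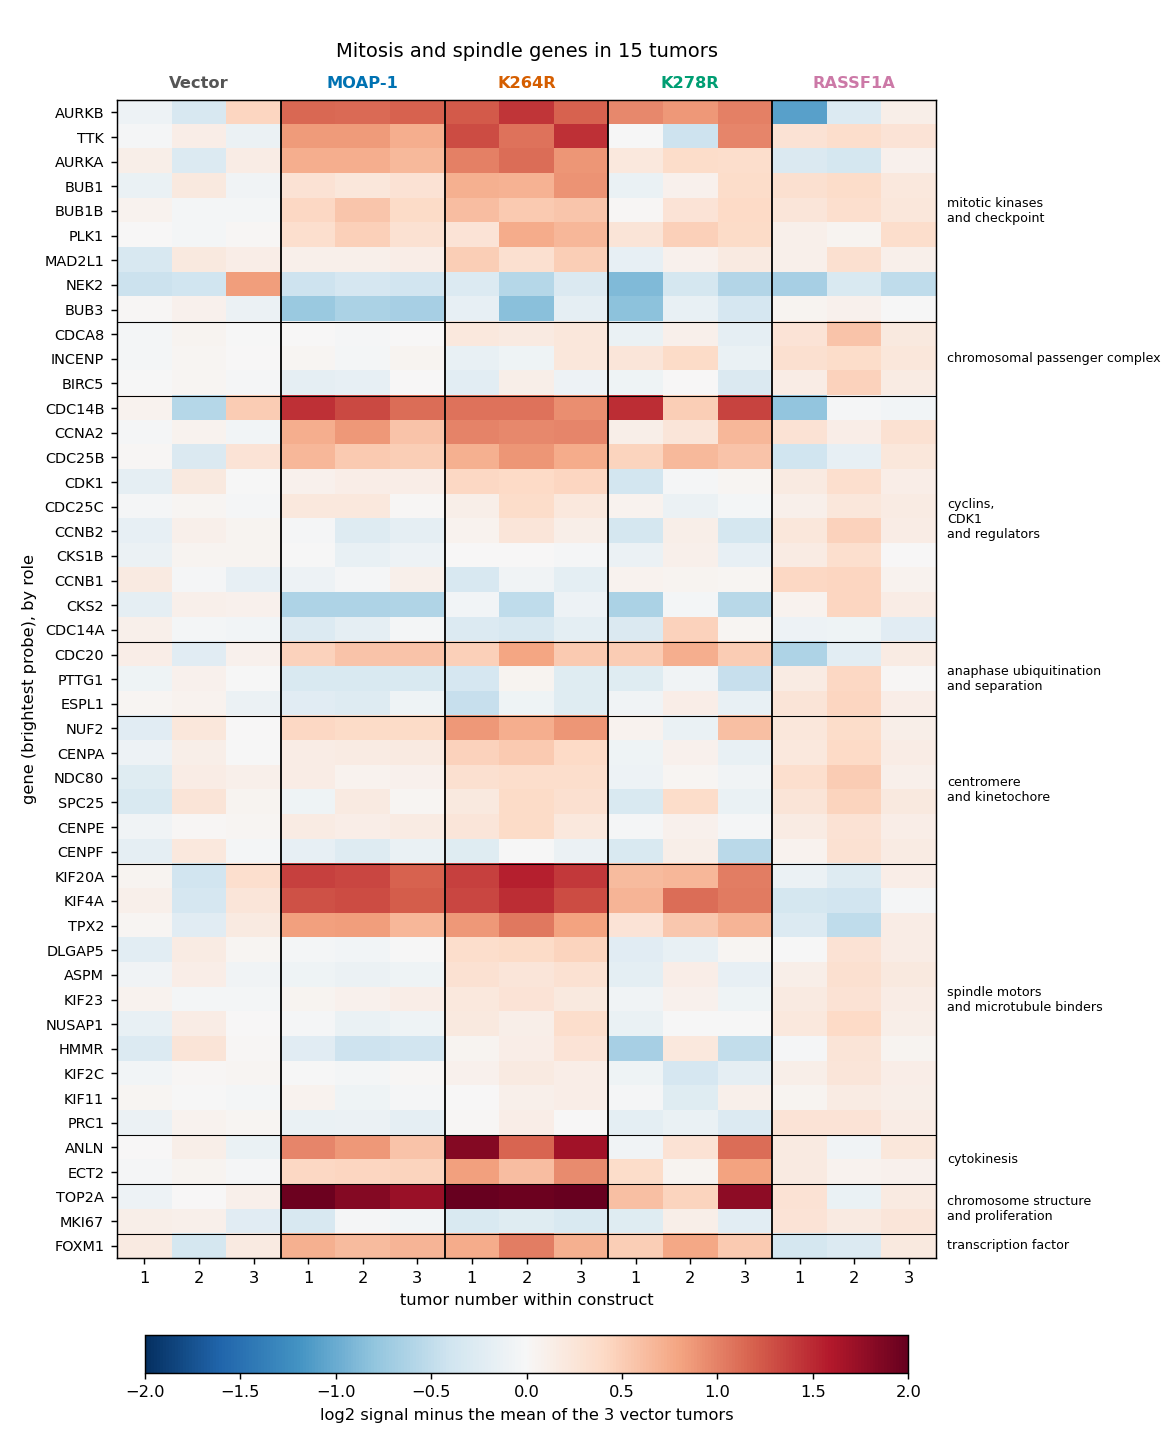
Log2 signal of 47 genes (rows, brightest probe, grouped by role) in 15 tumors (columns, by construct and tumor number), as the difference from the mean of the 3 vector tumors. TOP2A, KIF20A, KIF4A and AURKB are high in all 6 MOAP-1 and K264R tumors, and CKS2 and BUB3 are low in the 3 MOAP-1 tumors.

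The counts by role that follow stand beside the shares of all genes that rose, 14.3% in MOAP-1, 13.6% in K264R and 11.2% in K278R tumors, and most roles hold too few genes to be read against them. Among the kinases and checkpoint proteins, 5 of 9 rose and 1 fell in MOAP-1 tumors, 7 rose in K264R and 1 in K278R tumors. AURKB, the kinase of the chromosomal passenger complex, read -3.06, -3.29 and -2.54 in the vector tumors. It read -1.82, -1.83 and -1.79 in MOAP-1, -1.74, -1.54 and -1.78 in K264R and -2.01, -2.10 and -1.96 in K278R tumors. All 9 tumors of the MOAP-1 constructs were above all vector tumors, and the RASSF1A tumors, at -4.05, -3.23 and -2.85, overlapped with vector. The changes were 1.16 ± 0.24 in MOAP-1 (SE, 3 tumors against 3, adjusted p = 0.00377), 1.28 in K264R (adjusted p = 0.0016) and 0.94 in K278R tumors (adjusted p = 0.0184), or 2.23-, 2.42- and 1.92-fold. With the normexp background model the change in MOAP-1 and K278R tumors turned to -0.15 and -0.28, and it was 0.61 (adjusted p = 0.00878) and 0.48 (adjusted p = 0.0538) once 17 spots with extreme local background, on 2 vector arrays and 1 K264R array, were left out of that model. In the tumors labelled RASSF1A the change was -0.41 (adjusted p = 0.511), and 0.12 when only the shared slide was used.

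AURKA, which matures centrosomes and acts with TPX2 at spindle poles, read -0.60, -0.99 and -0.58 in vector, 0.01, 0.00 and -0.08 in MOAP-1 and 0.28, 0.39 and 0.16 in K264R tumors. The groups did not overlap, and AURKA rose by 0.70 in MOAP-1 (adjusted p = 0.00236) and by 1.00 in K264R tumors (adjusted p = 0.000206). In K278R tumors it was 0.31 above vector (adjusted p = 0.119). TTK, the kinase that starts the checkpoint signal at kinetochores, read -1.25, -1.10 and -1.34 in vector and -0.38, -0.38 and -0.50 in MOAP-1 tumors, a rise of 0.81 (adjusted p = 0.0265). In K264R tumors it read 0.07, -0.14 and 0.23, a rise of 1.28 (adjusted p = 0.00178). The rise in MOAP-1 tumors was lost in 7 of 17 alternative settings, among them the omission of any 1 of the 6 tumors. K278R tumor 3, at -0.25, stood apart from K278R tumors 1 and 2, at -1.24 and -1.64, which lay within or below the vector tumors. Of the remaining checkpoint genes, BUB1B (BubR1, an inhibitor of the anaphase-promoting complex) rose by 0.46 in MOAP-1 and 0.57 in K264R tumors, BUB1 rose by 0.76 and MAD2L1 by 0.44 in K264R tumors, and PLK1, the Polo-like kinase of mitotic entry, rose by 0.37 in MOAP-1 and 0.56 in K264R tumors. The rise of PLK1 in MOAP-1 tumors was lost in 9 of 17 alternative settings and turned to -0.16 with the normexp model. A dimmer PLK1 probe had 0.06 and -0.05 in MOAP-1 and K264R tumors (adjusted p = 0.833 and 0.87).

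BUB3, which carries BUB1 and BubR1 to kinetochores, was read by 2 probes that moved in opposite directions. The brighter read 2.81, 2.86 and 2.67 in vector and 2.03, 2.14 and 2.11 in MOAP-1 tumors, and fell by 0.69 ± 0.18 (SE, adjusted p = 0.0133). The second, designed to another transcript, read 1.04, 0.69 and 1.32 in vector and from 1.98 to 2.11 in MOAP-1 tumors, and rose by 1.01 ± 0.18 (adjusted p = 0.00147). Neither pair of groups overlapped. The second probe also rose in K264R (1.12) and K278R tumors (0.78), where the brighter one lay at -0.39 and -0.43 without passing. No direction for the gene as a whole can be given. NEK2, a centrosome kinase, also had 2 probes, with -0.37 (adjusted p = 0.301) at the brighter one and a rise of 0.86 (adjusted p = 0.00283) at the other in MOAP-1 tumors. Its brighter probe read -1.22 in vector tumor 3 against -2.48 and -2.45 in the other vector tumors.

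The chromosomal passenger complex apart from AURKB showed no call against vector. BIRC5 (survivin), INCENP and CDCA8 (borealin), the subunits that place and activate the kinase, had changes of -0.12, 0.02 and 0.00 in MOAP-1, of -0.07, -0.01 and 0.21 in K264R and of -0.12, 0.17 and -0.07 in K278R tumors. In the tumors labelled RASSF1A they were 0.26, 0.30 and 0.34 above vector, and the groups did not overlap in any of them, with adjusted p of 0.414, 0.389 and 0.341.

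Of the 10 cyclins, CDK1 and their regulators, 3 rose and 1 fell in MOAP-1, 4 rose in K264R and 2 in K278R tumors. CCNA2 (cyclin A2) read -1.29, -1.20 and -1.33 in vector, -0.54, -0.41 and -0.70 in MOAP-1 and -0.28, -0.31 and -0.29 in K264R tumors. The 3 groups did not overlap with one another, and the rises over vector were 0.72 (adjusted p = 0.00134) and 0.98 (adjusted p = 0.00017). CDC25B, a phosphatase that activates CDK1, rose by 0.56, 0.78 and 0.55 in MOAP-1, K264R and K278R tumors. CDK1 itself rose by 0.42 in K264R tumors (adjusted p = 0.0149), with 0.12 in MOAP-1 and -0.11 in K278R tumors. The B cyclins did not pass at their brightest probes, where CCNB1 had changes of -0.01, -0.20 and 0.05 and CCNB2 of -0.15, 0.14 and -0.19 in the same order. A second CCNB1 probe rose by 0.70 in K264R tumors (adjusted p = 0.00118), with all 3 at 2.30 to 2.34 against 1.51 to 1.71 in vector.

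CKS2, a small protein that binds CDK1, read 3.06, 3.35 and 3.33 in vector and 2.63, 2.63 and 2.65 in MOAP-1 tumors. The groups did not overlap and CKS2 fell by 0.61 ± 0.17 in MOAP-1 tumors (SE, adjusted p = 0.0154), a level 1.53-fold lower. K264R tumor 2, at 2.74, and K278R tumors 1 and 3, at 2.62 and 2.69, were also below all vector tumors, while the other tumors of these constructs read 3.14 to 3.21, and neither construct passed. The falls of CKS2 and BUB3 were both lost with quantile normalization and without vector tumor 2. CKS1B, its paralog, had -0.09 in MOAP-1 tumors at the brighter probe and a rise of 0.98 (adjusted p = 0.000426) at the other, so that its direction rests on the probe.

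CDC14B, a phosphatase that opposes CDK1, was dim, and its 2 probes, designed to different transcripts, disagreed. The brighter read -4.67, -5.32 and -4.24 in vector, -3.29, -3.42 and -3.63 in MOAP-1, -3.65, -3.66 and -3.82 in K264R and -3.26, -4.25 and -3.39 in K278R tumors. It rose by 1.30 ± 0.29 (SE, adjusted p = 0.00568), 1.03 (adjusted p = 0.0158) and 1.11 (adjusted p = 0.0202), with K278R tumor 2 level with vector tumor 3. These rises turned to -0.73, -0.28 and -0.75 with the normexp background model, and were 0.30, 0.01 and 0.28 with no call once the spots of extreme local background were left out of it. The dimmer had -0.23, -0.62 and -0.21, and the value in K264R tumors was a fall (adjusted p = 0.0218). CDC14A, its paralog, lay between -6.03 and -5.24 in all 15 tumors and passed in no comparison.

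In the group of anaphase genes, CDC20, the activator of the anaphase-promoting complex, rose in the tumors of all 3 MOAP-1 constructs. It read 0.45, 0.09 and 0.41 in vector, 0.78, 0.88 and 0.89 in MOAP-1, 0.80 and 0.84 in K264R tumors 1 and 3, more than 1 in K264R tumor 2, and 0.83, 1.05 and 0.83 in K278R tumors, without overlap with vector. The rises were 0.54, 0.60 and 0.59 (adjusted p = 0.0303, 0.0154 and 0.0288). PTTG1 (securin, which inhibits separase) and ESPL1 (separase, which cleaves cohesin) had changes of -0.30 and -0.19 in MOAP-1 tumors (adjusted p = 0.0991 and 0.248) and did not pass.

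Of the 6 centromere and kinetochore genes 0 passed in MOAP-1 and in K278R tumors (limma, with 1 and 0 at an unadjusted p below 0.05) and 4 in K264R tumors, where NUF2 (0.83), CENPA (0.46), NDC80 (0.34) and CENPE (0.28) rose (adjusted p = 0.00214, 0.003, 0.0395 and 0.0186). NDC80 and NUF2 are subunits of the complex that grips the microtubule, CENPA is the centromeric histone and CENPE a kinetochore motor. NUF2 read -1.64, -1.77 and -1.61 in K264R against -2.73, -2.28 and -2.49 in vector tumors, with MOAP-1 tumors between them at -2.08, -2.12 and -2.11. The adjusted p of NUF2 in MOAP-1 tumors was 0.0864 at a change of 0.39, and in MOAP-1 against K264R 0.411 at -0.43, so that neither difference passed. SPC25, from the same complex, and CENPF did not pass in any comparison with vector.

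Of the 11 motors and microtubule binders, 3 rose in MOAP-1, 5 in K264R and 3 in K278R tumors. KIF20A, the cytokinesis motor that brings AURKB and PLK1 to the midzone, read -2.10, -2.55 and -1.83 in vector, -0.79, -0.83 and -0.98 in MOAP-1 and -0.79, -0.61 and -0.75 in K264R tumors. K278R tumors, at -1.53, -1.50 and -1.14, lay between these groups without overlap with vector. KIF20A rose by 1.29 ± 0.17 (SE, adjusted p = 0.000277), 1.45 (adjusted p = 0.000117) and 0.77 (adjusted p = 0.00903), or 2.45-, 2.72- and 1.70-fold. KIF4A, a chromokinesin of the midzone, read -2.29, -2.72 and -2.15 in vector, -1.12, -1.08 and -1.18 in MOAP-1, -1.05, -0.91 and -1.08 in K264R and -1.71, -1.27 and -1.35 in K278R tumors. It rose by 1.26, 1.38 and 0.95 (adjusted p = 0.000233, 0.000108 and 0.0029), and the last value turned to -0.01 with the normexp model and was 0.59 without the spots of extreme local background. A dimmer KIF4A probe had smaller values of 0.33, 0.27 and 0.34, of which the first and the last passed.

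TPX2, the microtubule binder that activates AURKA, read 0.07, -0.21 and 0.21 in vector, 0.85, 0.86 and 0.69 in MOAP-1, 0.89, 1.08 and 0.83 in K264R and 0.29, 0.56 and 0.71 in K278R tumors. It rose by 0.78, 0.91 and 0.50 (adjusted p = 0.00369, 0.00109 and 0.0473), and of the 18 calls in MOAP-1 tumors its was the one that held in all 17 alternative settings. The call in K278R tumors was lost in 9 of the 17. ASPM, at spindle poles, and DLGAP5 (HURP), on microtubules near chromosomes, rose by 0.29 and 0.39 in K264R tumors, where ASPM passed narrowly (adjusted p = 0.0484). KIF11 (Eg5, which pushes the poles apart), KIF2C, HMMR, NUSAP1 and PRC1 passed in no comparison with vector. KIF23, the motor of centralspindlin, had 0.09 and 0.22 in MOAP-1 and K264R tumors at its brighter probe, and rises of 1.36 and 1.44 at its dimmer one (adjusted p = 0.000153 and 4.78e-05).

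Both cytokinesis genes, ANLN (anillin, a scaffold of the contractile ring) and ECT2 (the exchange factor for RhoA), rose in MOAP-1 and K264R tumors. ANLN read -1.47, -1.36 and -1.62 in vector, -0.50, -0.61 and -0.91 in MOAP-1 and 0.35, -0.32 and 0.19 in K264R tumors. These 3 groups did not overlap, and the rises were 0.81 ± 0.25 (SE, adjusted p = 0.0267) and 1.56 ± 0.25 (adjusted p = 0.000523), or 1.76- and 2.95-fold. The rise in MOAP-1 tumors was lost in 6 of 17 alternative settings, among them the omission of any 1 of the 3 vector tumors. K278R tumor 3, at -0.37, lay close to K264R tumor 2, at -0.32, while K278R tumors 1 and 2, at -1.55 and -1.19, overlapped with vector. ECT2 rose by 0.43 (adjusted p = 0.0445) and 0.80 (adjusted p = 0.00137), and the first of these calls was lost in 10 of 17 alternative settings, among them quantile normalization and the omission of any 1 tumor.

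TOP2A, the topoisomerase that untangles sister chromatids, showed the largest change among the members in MOAP-1 and K264R tumors. It read -2.64, -2.53 and -2.44 in vector, -0.58, -0.70 and -0.81 in MOAP-1, -0.36, -0.57 and -0.35 in K264R and -2.24, -2.67 and -2.35 in RASSF1A tumors. The MOAP-1 and K264R tumors were far above both vector and RASSF1A tumors, with rises over vector of 1.84 ± 0.26 (SE, adjusted p = 0.000413) and 2.11 ± 0.26 (adjusted p = 0.000138), or 3.58- and 4.32-fold. With the normexp model they were 0.80 and 1.14, without a call (adjusted p = 0.205 and 0.0889), and 1.40 and 1.62, both called, when the spots of extreme local background were left out. In K278R tumors it read -1.94, -2.09 and -0.74, a rise of 0.94 (adjusted p = 0.0251) that was 0.52 without tumor 3.

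**Figure D3:**
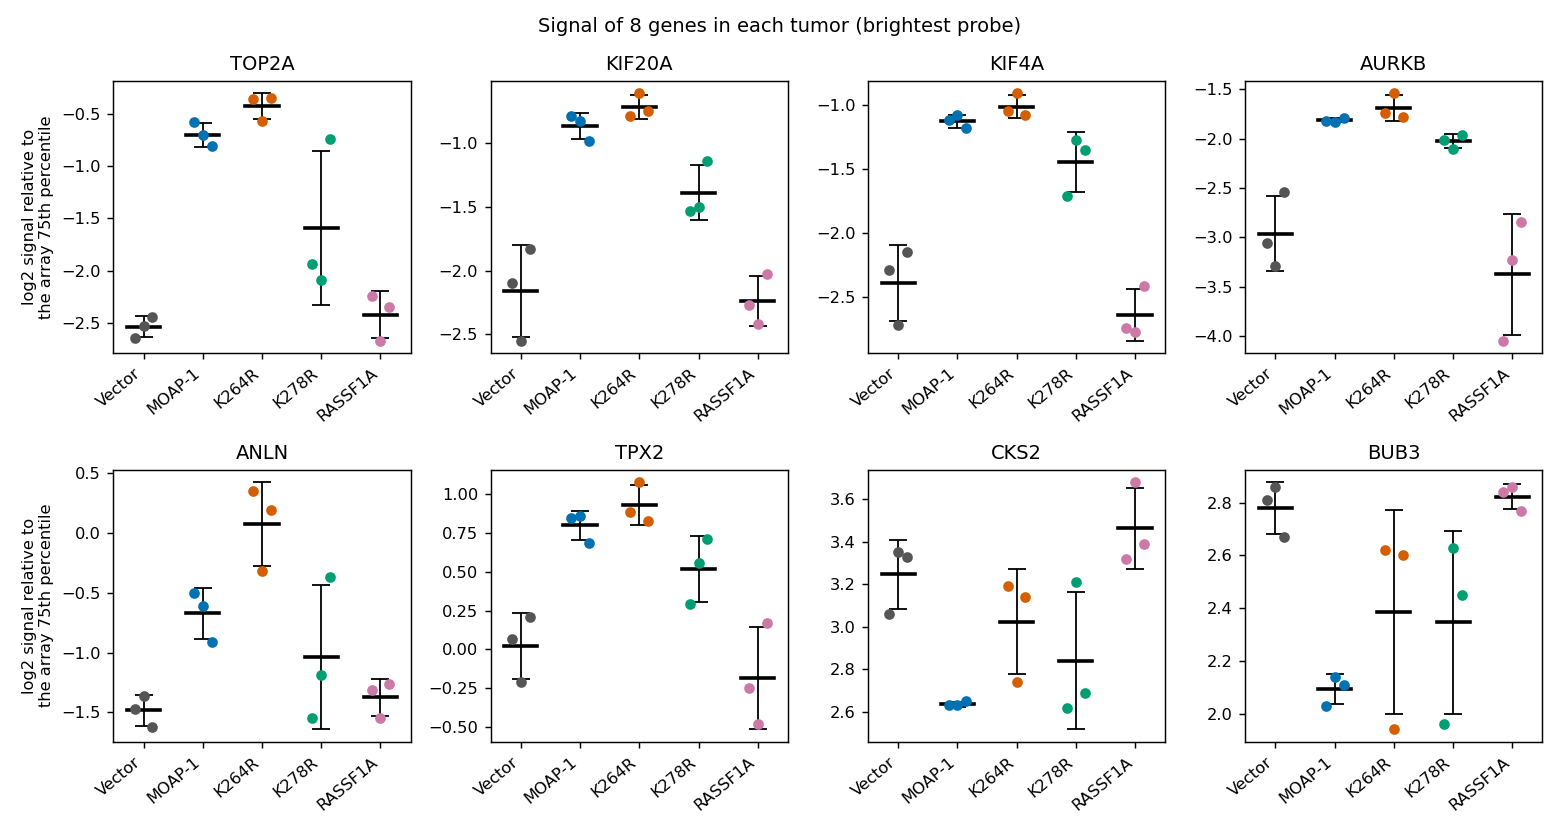
Log2 signal relative to the 75th percentile of the array (y axis) in each of 3 tumors per construct (x axis, points) for 8 genes at their brightest probe, with the mean (long bar) and SD (error bar). MOAP-1 and K264R tumors lie above vector tumors in 6 of the 8 panels, MOAP-1 tumors lie below them for CKS2 and BUB3, and K278R tumor 3 stands apart for TOP2A and ANLN.

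MKI67, the proliferation marker Ki-67, was read by 3 probes to the same transcript, which disagreed. The brightest had -0.13, -0.29 and -0.12 in MOAP-1, K264R and K278R tumors (adjusted p from 0.0866 to 0.531). The dimmest read -3.80, -4.58 and -3.70 in vector and -2.57, -2.54 and -2.61 in MOAP-1 tumors, and rose by 1.46, 1.61 and 1.27 (adjusted p = 0.00058, 0.000219 and 0.00356). The remaining probe rose by 0.53 in MOAP-1 tumors (adjusted p = 0.0495), with overlap of the groups. FOXM1, the transcription factor that drives many of these genes, read -0.21, -0.74 and -0.21 in vector, 0.32, 0.25 and 0.30 in MOAP-1, 0.36, 0.63 and 0.32 in K264R and 0.11, 0.39 and 0.14 in K278R tumors. FOXM1 rose in all 3, by 0.68, 0.83 and 0.60 (adjusted p = 0.00902, 0.00236 and 0.0249), or 1.60-, 1.78- and 1.52-fold.

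Probes of 1 gene often disagreed. The 11 genes with more than 1 probe had 12 further probes, and 4 of these had the sign of the brightest probe in MOAP-1 against vector, 4 in K264R and 3 in K278R. In 9 of the 11 genes the probes were designed to the same accession, and the exceptions were BUB3 and CDC14B. Calls in opposite directions were found for BUB3 in MOAP-1 and for CDC14B in K264R tumors. For BUB3, CKS1B, KIF23, MKI67 and NEK2 a dimmer probe rose in MOAP-1 and K264R tumors where the brightest had no rise, and for KIF4A, PLK1 and CDC14B the brightest rose the most.

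**Figure D4:**
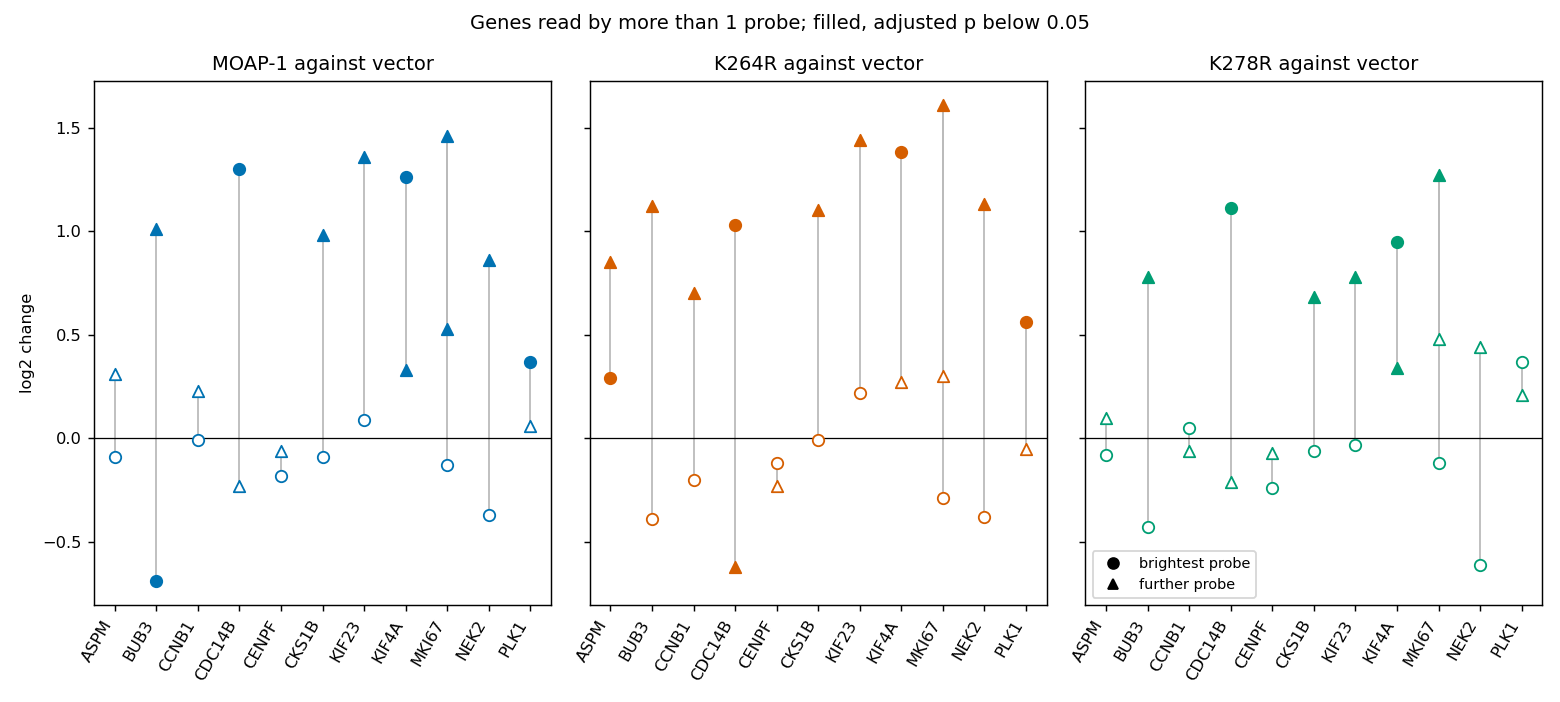
Log2 change against vector (y axis) of every probe of the 11 genes with more than 1 probe (x axis) in MOAP-1, K264R and K278R tumors, with circles for the brightest probe, triangles for further probes and filled symbols for adjusted p below 0.05. A further probe of BUB3, CKS1B, KIF23, MKI67 and NEK2 lies above the brightest one in all 3 panels.

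Brightness differs between probes for reasons other than the amount of RNA, and it is used here only to sort the probes. Of the 16 members whose brightest probe had a mean more than 1 above the 75th percentile over the 15 arrays, 1 rose and 2 fell in MOAP-1 tumors, with a median change of -0.10. Of the 12 more than 1 below it 6 rose, with a median of 0.38, and of the 19 in between 9 rose, with a median of 0.26. Of all genes more than 1 below the 75th percentile 17.0% rose in MOAP-1 tumors, against 6.93% of those more than 1 above it, of which 31.2% fell. The part of probe brightness in the members' changes was not tested.

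The comparison of wild type MOAP-1 with its lysine mutants asked whether a change of either lysine altered these levels. Against K264R tumors no member passed (0.00399% of all genes did), and 14 had an unadjusted p below 0.05, against 10.8% of genes. MOAP-1 tumors were lower than K264R tumors for 40 of the 47, with a median of -0.19 against 0.06 over all genes, and wholly below them for 27, against 6.06% of genes. The 9 genes that passed against vector in K264R tumors alone were all wholly below K264R in MOAP-1 tumors, by -0.50 to -0.13. These genes were chosen by calls that use the same K264R and MOAP-1 values, so that this order is partly set by the choice. The adjusted p of limma was 0.324 to 0.575, and a difference between the constructs was not shown for any of them. BUB1 had the lowest unadjusted p, at -0.50 ± 0.13 (SE, adjusted p = 0.324). With limma's array weights, 17 members were called lower and 0 higher in MOAP-1 than in K264R tumors, against 7.3% and 18.0% of all genes.

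Against K278R tumors no member and no gene (0.0%) passed, 7 members had an unadjusted p below 0.05 against 9.22% of genes, and MOAP-1 tumors lay wholly above K278R tumors for 9 members, against 4.48% of genes. TOP2A differed most, by 0.89 ± 0.26 (SE, adjusted p = 0.448), and KIF20A by 0.52 (adjusted p = 0.465). K278R tumors varied more among themselves than the others, with an SD above 0.3 in 12 members, against 0 in MOAP-1, 2 in K264R, 4 in vector and 5 in RASSF1A tumors. Without K278R tumor 3, 3 members were called higher in MOAP-1 than in K278R tumors, against 0.579% of all genes. The methods' t-test, at its fold threshold and unadjusted, called 1 member against K264R and 0 against K278R, without a share of all genes to set beside them. K264R tumors had the highest mean for 28 of the 47 members, RASSF1A tumors for 16, and each of the other constructs for 1. K278R tumors had the lowest mean for 15, vector for 11, RASSF1A for 9, MOAP-1 for 7 and K264R for 5. The same order over all genes is not given here, so these counts are not read as a trait of the members.

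Between MOAP-1 tumors and those labelled RASSF1A the members split. Of the 47, 12 were higher in MOAP-1 tumors and 11 lower, against 17.2% and 19.3% of all genes, with a median of -0.09 against -0.04. TOP2A was higher by 1.72 ± 0.26 (SE, adjusted p = 0.000303), CDC14B, at its brighter probe, by 1.59 (adjusted p = 0.00111), AURKB by 1.56 (adjusted p = 0.000348), KIF4A by 1.51 (adjusted p = 4.04e-05) and KIF20A by 1.37 (adjusted p = 7.91e-05). CKS2 was lower in MOAP-1 tumors by -0.82 ± 0.17 (SE, adjusted p = 0.00196), BUB3 at its brighter probe by -0.73 (adjusted p = 0.00695) and PTTG1 by -0.51 (adjusted p = 0.00871). PTTG1 read 2.97, 2.96 and 2.97 in MOAP-1 and 3.43, 3.69 and 3.30 in RASSF1A tumors, without overlap. The other lower genes were ASPM, BIRC5, CCNB2, CDCA8, ESPL1, MKI67, NUSAP1 and PRC1. For 2 of the 11 lower genes a dimmer probe was higher in MOAP-1 tumors, by 1.27 for BUB3 (adjusted p = 0.000196) and by 1.70 for MKI67 (adjusted p = 0.000114). RASSF1A tumors 1 and 2 were scanned on another day than all MOAP-1 tumors. With scan day as a block, which compares MOAP-1 with RASSF1A tumor 3, 5 members were called higher and 0 lower, against 5.34% and 6.7% of all genes, and the median was 0.00. With quantile normalization 11 were higher and 1 lower, against 16.1% and 21.3% of all genes.

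The members' neighbors in the pathway were read from 4 lists of 99 further genes, of the kinetochore, cohesin and condensin, the anaphase-promoting complex, and spindle, cytokinesis and mitotic entry. Against vector 23 rose and 6 fell in MOAP-1, 35 rose and 6 fell in K264R and 13 rose and 5 fell in K278R tumors, with medians of 0.07, 0.21 and 0.01. The shares that rose were 23.2%, 35.4% and 13.1%, against 14.3%, 13.6% and 11.2% of all genes, and the shares that fell 6.06%, 6.06% and 5.05%, against 15.3%, 20.6% and 8.56%, so that the K278R shares lay near those of all genes. No gene of these lists passed in the tumors labelled RASSF1A. There 21 of the 99 had an unadjusted p below 0.05, against 11.8% of all genes, and the median was 0.13. Of the 30 further kinetochore genes 10 rose and 2 fell in MOAP-1 and 13 rose and 2 fell in K264R tumors. Of the 17 genes of the anaphase-promoting complex 3 rose and 1 fell in MOAP-1 and 5 rose and 1 fell in K264R tumors. The share that rose in MOAP-1 tumors, 17.6%, was close to the 14.3% of all genes.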

How the data were processed

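Whole-genome 1-color Agilent arrays were hybridized with RNA of 15 HCT116 xenograft tumors. The scanner files that the authors deposited come from Feature Extraction (10.5.1.1 per the file headers, 9.1 per the submitters' processing notes). The intensities the authors deposited are background-corrected by that software and not yet normalized between arrays. A log2 table from GeneSpring, also by the authors, served as an alternative setting.

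Of 43118 non-control spots, outlier spots were dropped, intensities were put on the log2 scale relative to the 75th percentile of their array, and replicate spots were averaged to 34127 probes. The filter asked that some construct have a probe well above background in each of its 3 tumors, which 30585 probes (25063 genes) met. Names come from RefSeq (GRCh38.p14) through the accession of a probe, for 25422 probes (74.5%), and otherwise from the file. No spot was saturated (0). Arrays have no counting depth, and the number of tumors limits the precision.

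The fit used limma 3.58.1 under R 4.3.3 (lmFit, eBayes) with construct as its single term, 15 arrays and 10 residual degrees of freedom, with Benjamini-Hochberg adjustment over the filtered probes. The unpaired t-test at 1.5-fold named in the design text of the series (called the methods' t-test) and the settings listed in the closing section were alternatives. The fit was tested on simulated data. Changes are described in full for AURKB and CDC14B at every probe and, in each comparison, for the 3 largest rises and the 3 largest falls among members that passed without overlap of the groups. Other members are given by role, and those with full values beyond this rule were chosen after their values were seen. The members, the pathway and marker lists and the tests were chosen with earlier results of these data known. The deviations of same-numbered tumors from their construct means had r above 0.1 in 15 of 30 pairs (-0.25 to 0.366), with 9 of 10 pairs among tumors 2, 4 of 10 among tumors 1 and 2 of 10 among tumors 3. Pairs of differently numbered tumors had r from -0.467 to 0.452. As not every same-numbered pair passed 0.1, the numbers were not used as pairs. The 3 deviations of a construct are tied to one another by its mean, so these values cannot decide whether tumors are paired.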

Additional observations from a re-analysis of the deposited data

How the results depend on the processing

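The number of members called was within 1.5 times of the main count except as follows. With the normexp background model (offset 50) it was 1 in MOAP-1, 4 in K264R and 0 in K278R against vector and 7 in MOAP-1 against RASSF1A, where the median of all genes moved to -0.47, -0.29, -0.40 and -0.12. The shares of all genes called fell there to 1.83%, 3.35%, 0.00399% and 8.55%, from 29.6%, 34.2%, 19.8% and 36.5% in the main fit. Without the 17 spots of extreme local background the same model called 14 higher and 2 lower, 24 and 1, 7 and 0, and 11 and 10. Of all genes it then called 24.4%, 56.6%, 9.96% and 27.3%. Quantile normalization gave 12 and scan day as a block 5 in MOAP-1 against RASSF1A, whose median was then 0.00. A fit of only the 2 constructs gave 2 in K278R, and array weights 17 in MOAP-1 against K264R, against 3.71% and 25.3% of all genes. Asking also for 1.5-fold left 16 in K264R, all of them higher, and 13 in MOAP-1 against RASSF1A. In K264R the same rule called 2008 of the 25063 genes higher and 2633 lower. The share for MOAP-1 against RASSF1A is not given here. The methods' t-test, unadjusted, gave 16 in K264R, 5 in K278R, 1 in MOAP-1 against K264R and 13 in MOAP-1 against RASSF1A, and adjusted 11 in MOAP-1, 13 in K264R, 0 in K278R and 10 in MOAP-1 against RASSF1A. Its shares of all genes are not given here, so these counts are not read as a trait of the members. Leaving out 1 tumor gave 10 to 14 calls in MOAP-1, 19 to 25 in K264R, 2 to 10 in K278R, 0 to 1 in RASSF1A, 0 to 0 in MOAP-1 against K264R, 0 to 3 against K278R and 16 to 22 against RASSF1A. The lowest counts came without vector tumor 2 in MOAP-1 (10) and in K278R (2, against 3 without K278R tumor 3 and 5 without vector tumor 1), and the 1 call in RASSF1A came without its tumor 3. Of all genes, 18.6% were then called in MOAP-1, 7.45%, 11.4% and 13.8% in K278R in the order given, and 5.32% in RASSF1A. With the replicate number as a block the counts were 19, 25, 9, 0, 0, 0 and 23, and no call count moved by over 1.5 times. Of all genes 29.8%, 33.8%, 20.3%, 0.0%, 0.00399%, 0.0% and 36.4% were then called. AURKB turned to -0.15 in MOAP-1 and -0.28 in K278R, KIF4A to -0.01 in K278R, and the brighter CDC14B probe to -0.73, -0.28 and -0.75 in the 3 MOAP-1 constructs and to -0.45 in MOAP-1 against K264R with normexp. AURKB in RASSF1A was 0.12 with scan day or slide as a block and within the shared slide. The brighter CDC14B probe in MOAP-1 against K278R was -0.04 with array weights and -0.12 to 0.37 without 1 tumor (-0.12 without K278R tumor 2). The other CDC14B probe turned to -0.64 with normexp against K264R. Against K278R it was 0.03 with quantile normalization, 0.12 with array weights, 0.28 with slide as a block or within the shared slide, and -0.17 to 0.14 without 1 tumor (0.14, 0.09 and 0.02 where it turned). Against RASSF1A it was -0.13 with quantile normalization, -0.17 with normexp in both forms, -0.09 with scan day as a block and -0.14 to 0.12 without 1 tumor. The causes were not tested. Of the members called, 1 of 18 in MOAP-1, 4 of 25 in K264R, 0 of 9 in K278R and 4 of 23 in MOAP-1 against RASSF1A held in every setting. In MOAP-1 against vector the calls of AURKA, AURKB, BUB1B, CCNA2, FOXM1, KIF20A, KIF4A and TOP2A were lost only with normexp. The others there, apart from TPX2, were lost in further settings too.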
